A study of Homo sapiens with 12 samples.

Results

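RNA sequencing of IMR90 cells that carried both oncogenic RAS and a hairpin against DOT1L (RAS/shDOT1L, 3 libraries) was compared with that of empty-vector cells (Control, 3 libraries), 6 of the 12 libraries of the series. The 6 were chosen by their labels, and all genes were used: 13519 of 48162 gene IDs passed the filter on low counts, and 25695 had no count in these 6 libraries. IMR90 is a line of normal human lung fibroblasts. Control cells received the empty retroviral vector pBABE, RAS cells pBABE with HRAS G12V, and RAS/shDOT1L cells the same RAS vector plus the lentiviral hairpin vector pLKO.1-shDOT1L. All 3 were grown in 2% oxygen and selected with puromycin at 3 µg/mL for 4 days. RAS libraries (3) stand beside the comparison below, because they share the oncogene with RAS/shDOT1L, and DOT1L overexpression libraries (3) were not used in it. Control and RAS are called the parents of RAS/shDOT1L in what follows. The study's methods name 2 hairpins against DOT1L and its legends a hairpin against GFP as a control, but the labels say neither which DOT1L hairpin these libraries carried nor whether Control and RAS cells carried the GFP one. No library here has the DOT1L hairpin without RAS. The effects of RAS and of the DOT1L hairpin therefore cannot be told apart in RAS/shDOT1L against Control alone.

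Oncogenic RAS in normal fibroblasts first drives and then arrests proliferation, a state called oncogene-induced senescence. Senescent cells release cytokines, chemokines, proteases and growth factors, together the senescence-associated secretory phenotype (SASP), in which IL1A acts upstream and the transcription factors NF-κB and C/EBPβ switch on many members. DOT1L puts methyl groups on lysine 79 of histone H3, a mark found on the bodies of transcribed genes.

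DOT1L (ENSG00000104885; GRCh38 chromosome 19, 2163933 to 2232578, plus strand) bore out the labels. It stood at 33.5, 29.1 and 32.5 CPM (read counts scaled to a common library size with the TMM method) in the 3 Control libraries and at 10.2, 11.4 and 11.4 in the 3 RAS/shDOT1L libraries, and at 82.2, 82.7 and 88.4 in the RAS libraries. The lowest Control library was above every RAS/shDOT1L library, so DOT1L fell below the Control level and not only below RAS: the log2 change against Control was -1.52 ± 0.13 (SE; edgeR adjusted p = 2.62e-11). HRAS (chromosome 11, 532242 to 537321, minus strand), whose counts add the transgene to the endogenous gene, was at 82.9, 86.4 and 88.5 CPM in Control, 492, 511 and 506 in RAS and 261, 287 and 278 in RAS/shDOT1L. The groups did not overlap, and HRAS was 3.22-fold above Control in RAS/shDOT1L but 1.8-fold below RAS (edgeR adjusted p = 4.57e-22 and 5.07e-19). Whether the lower HRAS level in RAS/shDOT1L takes part in the differences from RAS was not tested. Library totals were 16128055 to 16523712 counts in RAS/shDOT1L, 17883911 to 19181783 in Control and 17354579 to 18463847 in RAS, and mitochondrially encoded genes took 2.26% ± 0.17, 2.44% ± 0.12 and 3.76% ± 0.12 of them (SD, n = 3). Figure legends of the study speak of technical replicates and its methods of biological ones, so p-values cover no more than the variation among these libraries, possibly a technical one.

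A total of 7480 genes, 55.3% of those tested, differed between RAS/shDOT1L and Control in edgeR's quasi-likelihood test (adjusted p below 0.05), with 3768 higher (27.9%) and 3712 lower (27.5%). Counts of higher and lower members in the gene lists below are to be read beside these 2 shares. The median log2 change over all genes was -0.01, and the middle of the distribution (quartiles) ran from -0.47 to 0.44. When only library size was scaled for, the median moved to -0.13 and the split became 3036 higher and 4565 lower. A change of over 1.5-fold, tested with glmTreat, was called for 2580 genes (19.1%), 1273 higher (9.42%) and 1307 lower (9.67%). The 3 libraries of one group lay wholly above those of the other for 61.8% of genes. In bulk RNA, fewer cells of a kind and less RNA per cell cannot be told apart.

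**Figure D1:**
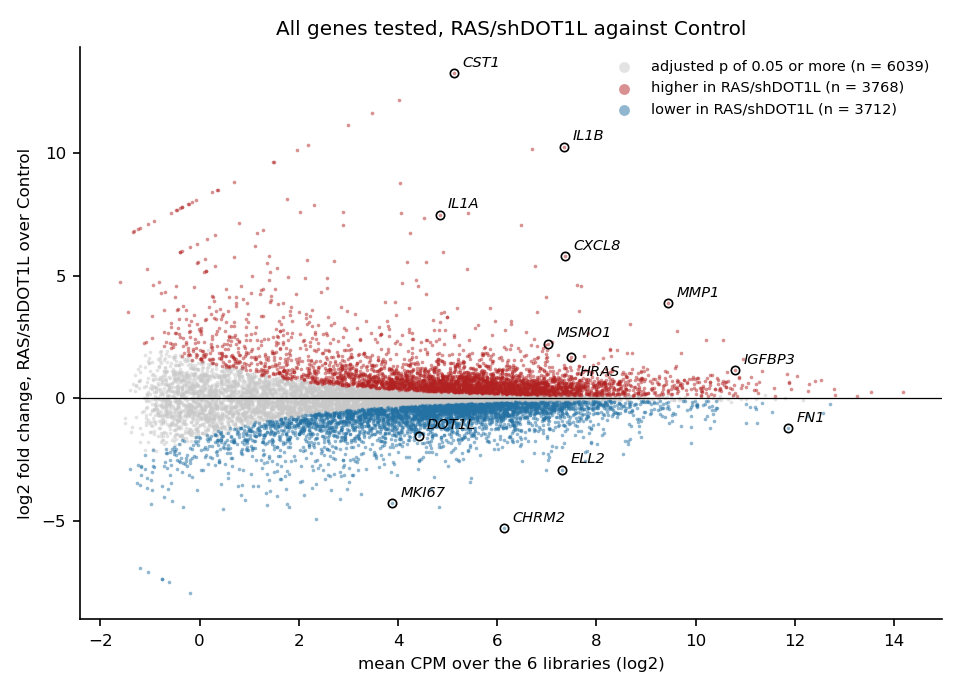
Log2 fold change of RAS/shDOT1L over Control (vertical axis) against the mean CPM over the 6 libraries on a log2 scale (horizontal axis), 1 point per gene tested, with 3768 genes higher in red, 3712 lower in blue and the rest in grey. CST1, IL1B, IL1A, CXCL8 and MMP1 lie far above 0, CHRM2, MKI67 and ELL2 far below it.

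To describe the part of the RAS response that stayed when DOT1L was low, the 12927 genes tested in all 3 comparisons were sorted by their calls. RAS alone was above Control for 4196 of them (RAS against Control called 64.0% of its genes, 31.9% higher and 32.0% lower). Of these, 2402 (57.2%) were also above Control in RAS/shDOT1L, 1305 (31.1%) were not called against Control, and 489 (11.7%) were below Control. The 2402 divided into 954 that lay between Control and RAS, 977 with no call against RAS and 471 that lay beyond RAS (RAS/shDOT1L against RAS called 52.8% of its genes, 26.3% higher and 26.4% lower). Of 4210 genes lower in RAS, 2352 (55.9%) were also lower in RAS/shDOT1L, 1455 (34.6%) were not called and 403 (9.6%) were above Control. The 2 comparisons with Control share its 3 libraries, which by itself makes their calls alike, and a gene without a call is not shown to be equal to Control.

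**Figure D2:**
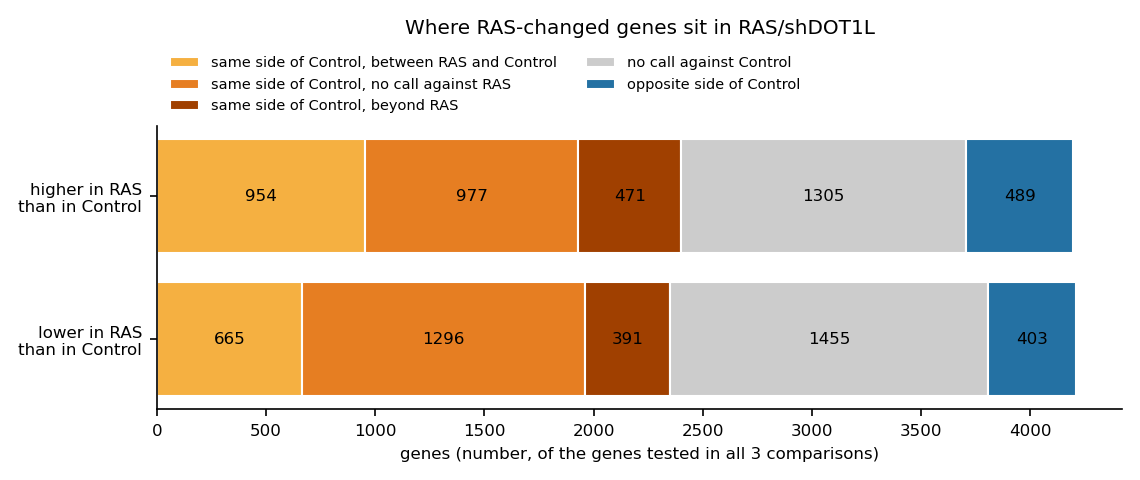
Number of genes (horizontal axis) among those higher in RAS than in Control (upper bar, 4196 genes) and those lower (lower bar, 4210 genes), divided by where RAS/shDOT1L lay. The orange and brown pieces (954, 977 and 471 genes above, 665, 1296 and 391 below) stayed on the same side of Control as in RAS, the grey pieces (1305 and 1455) had no call against Control, and the blue pieces (489 and 403) lay on the opposite side.

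Membership of these classes moved with a correction for base composition, while their sizes stayed within 1.5 times. A fit with an offset for transcript GC content left 2184 genes in the class that stayed higher and 2117 in the class that stayed lower, and 1682 (70.0%) and 1602 (68.1%) of the genes named above were still there. Of the 489 and 403 genes on the opposite side of Control, 196 (40.1%) and 178 (44.2%) kept that place. Of the 1305 and 1455 RAS-changed genes without a call against Control, 531 (40.7%) and 598 (41.1%) stayed in that class. Against Control, the median log2 change of RAS/shDOT1L rose from -0.25 in the tenth of genes with the lowest GC content to 0.18 in the highest. It fell from 0.39 in the tenth with the shortest transcripts to -0.34 in the longest. GC content and length here are those of the longest annotated transcript of each gene, which need not be the one expressed. Genes named below carry a remark where such an offset ended or turned their call against Control.

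SASP cytokines and chemokines stayed far above Control in RAS/shDOT1L, at a lower level than in RAS. Of 25 listed genes 23 were found by symbol and 18 passed the filter, and 14 of these were higher and 1 lower, with a median log2 change of 4.41 in RAS/shDOT1L and 7.71 in RAS, beside -0.01 and -0.04 over all genes. All 13 that were higher in both RAS and RAS/shDOT1L lay between the parents. IL1A, IL1B, CXCL1, CSF2 and CSF3 had few or no counts in Control and passed the filter only through the RAS/shDOT1L libraries. Their direction was largely set by the filter, and they enter the count of higher genes and the median. The summed level of the list was 117.8 to 120.2 CPM in Control, 1125 to 1185 in RAS/shDOT1L and 8831 to 8943 in RAS.

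IL1A (chromosome 2, 112773925 to 112784493, minus strand), the membrane-bound cytokine at the head of the SASP, was at 0.361, 0.216 and 0.352 CPM in Control, 58.6, 56.3 and 55.8 in RAS/shDOT1L and 286, 281 and 252 in RAS. Each group lay apart from the others, with RAS/shDOT1L 179-fold above Control (log2 change 7.49 ± 0.20 SE, edgeR adjusted p = 1.35e-24) and 4.74-fold below RAS (adjusted p = 4.25e-29). IL1B (chromosome 2, 112829751 to 112836816, minus strand), its secreted relative in the same gene cluster, read 0.361, 0 and 0.402 CPM in Control, 343, 307 and 328 in RAS/shDOT1L and 2986, 2947 and 2994 in RAS. Its log2 change against Control was 10.26 ± 0.15 and rests on 15 counts in Control. CXCL8 (chromosome 4, 73740519 to 73743716, plus strand), a neutrophil chemokine, was at 4.8, 6.25 and 6.53 CPM in Control against 315, 321 and 340 in RAS/shDOT1L and 2704, 2751 and 2669 in RAS, a log2 change of 5.80 ± 0.08 (edgeR adjusted p = 2.28e-31). On the log2 scale these 3 genes kept most of their distance from Control, which was 9.74, 13.45 and 8.85 in RAS.

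IL6 (chromosome 7, 22725884 to 22732002, plus strand), the interleukin most used as a SASP marker, came closer to Control. It read 2.73, 3.39 and 3.07 CPM in Control, 11.7, 8.65 and 9.02 in RAS/shDOT1L and 193, 204 and 194 in RAS, so that its log2 change was 1.68 ± 0.25 in RAS/shDOT1L (edgeR adjusted p = 6.5e-07) where RAS was 64.1-fold above Control. The granulocyte growth factor CSF3 had 0 counts in Control and was at 22.1, 22.4 and 22.5 CPM in RAS/shDOT1L, at least 430.3-fold higher if Control as a whole is set to a floor of 3 counts. In RAS it was at 760, 777 and 735 CPM. The chemokine CXCL1 went from 0.442 CPM in Control to 84.8 in RAS/shDOT1L (log2 change 7.54, or 8.29 without Control replicate 3), CSF2 from 0.342 to 37.5 and IL24 from 0.739 to 6.58. CSF1, the macrophage growth factor, was at 63.4 CPM in RAS/shDOT1L, above both Control (32.1) and RAS (23.7). Against the direction of the list, CXCL12 was lower than Control (log2 change -1.68, edgeR adjusted p = 0.000326). CCL2 and CCL26 had no call. The 5 members under the filter were CCL7, CCL8, IL33, TNFSF11 and CXCL2, the last with 0 counts in Control, 58 in RAS/shDOT1L and 925 in RAS.

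**Figure D3:**
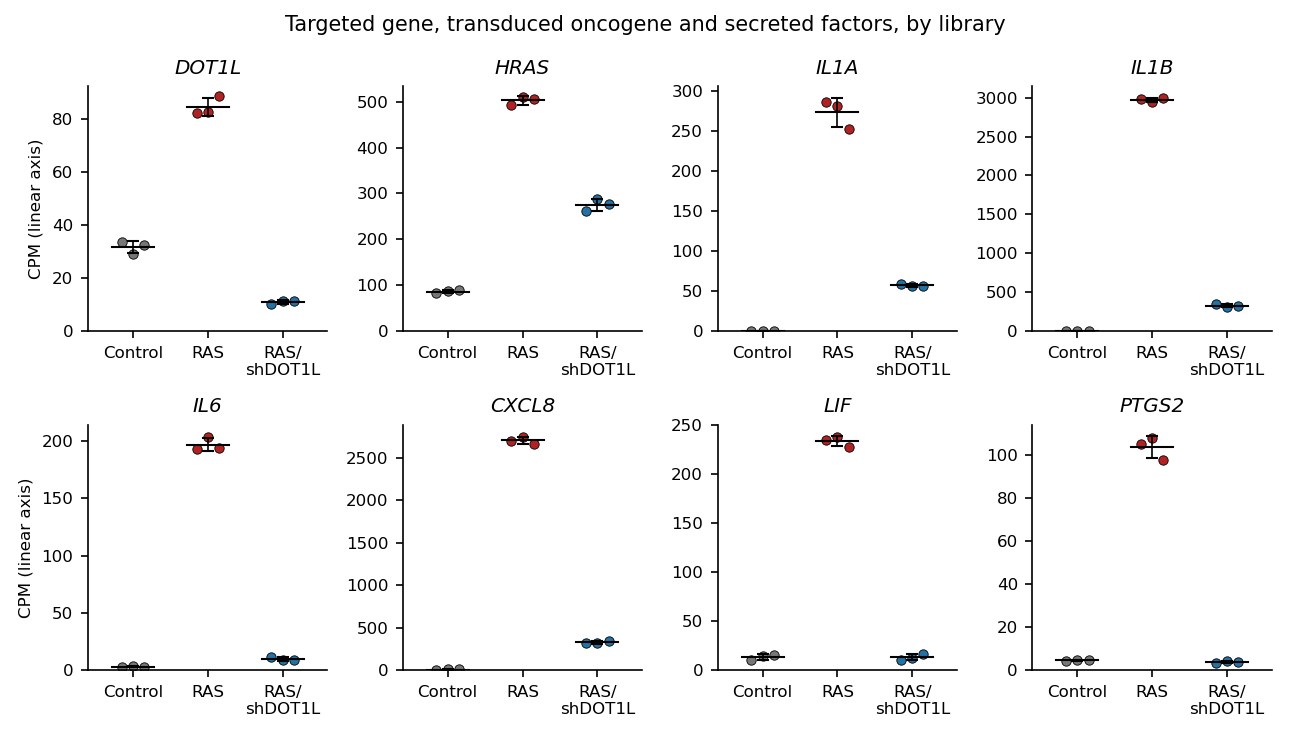
CPM on linear axes of DOT1L, HRAS and 6 secreted factors or their enzymes in each library of Control, RAS and RAS/shDOT1L, with a horizontal line for the mean and error bars for the SD of 3 libraries. DOT1L is lowest in RAS/shDOT1L, HRAS lies between the parents, IL1A, IL1B, IL6 and CXCL8 lie above Control and below RAS, and LIF and PTGS2 lie far below RAS with no call against Control.

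LIF and PTGS2 showed the other outcome, a large rise in RAS with no call against Control in RAS/shDOT1L. LIF, a cytokine of the IL6 family, was at 9.75, 14.7 and 15.5 CPM in Control, 10.4, 12.7 and 16.8 in RAS/shDOT1L and 235, 238 and 228 in RAS. The Control and RAS/shDOT1L libraries overlapped, with a log2 difference of 0.00 (95% interval -0.37 to 0.38, edgeR adjusted p = 0.991). PTGS2, the inducible prostaglandin synthase, read 4.23, 4.69 and 4.47 CPM in Control, 3.39, 4.14 and 3.91 in RAS/shDOT1L and 105, 108 and 98 in RAS (log2 difference from Control -0.22, interval -0.78 to 0.34, adjusted p = 0.535). Its 3 RAS/shDOT1L libraries all lay below the 3 of Control.

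Promoter letters of 3 of these genes are shown because κB and AP-1 elements, the letters that NF-κB and the AP-1 factors below RAS bind, are known in SASP promoters. The windows are from RefSeq on GRCh38.p14, 250 bases before to 50 after the gene start, 5′ to 3′ on the strand of the gene, with matches in capitals. Searched on both strands, the κB letters were GGG, any 3 bases and TTCC, and the AP-1 letters were TGANTCA. In CXCL1 and IL6 the capitals mark κB letters, where the 2 matches in CXCL1 overlap, and in IL1A they mark AP-1 letters.
CXCL1 chr4:73869143-73869442 (plus strand): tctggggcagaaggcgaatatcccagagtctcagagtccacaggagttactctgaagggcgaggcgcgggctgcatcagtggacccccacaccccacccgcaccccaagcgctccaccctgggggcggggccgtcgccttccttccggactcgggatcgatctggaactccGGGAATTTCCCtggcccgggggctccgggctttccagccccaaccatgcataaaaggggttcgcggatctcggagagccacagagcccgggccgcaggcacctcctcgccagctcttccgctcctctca
IL6 chr7:22726950-22727249 (plus strand): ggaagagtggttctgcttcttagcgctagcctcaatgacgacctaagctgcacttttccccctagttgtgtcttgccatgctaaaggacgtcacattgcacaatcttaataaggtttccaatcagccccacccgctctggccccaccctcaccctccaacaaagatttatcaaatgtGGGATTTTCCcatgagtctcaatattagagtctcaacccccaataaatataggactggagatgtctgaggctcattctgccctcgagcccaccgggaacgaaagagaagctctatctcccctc
IL1A chr2:112784444-112784743 (minus strand): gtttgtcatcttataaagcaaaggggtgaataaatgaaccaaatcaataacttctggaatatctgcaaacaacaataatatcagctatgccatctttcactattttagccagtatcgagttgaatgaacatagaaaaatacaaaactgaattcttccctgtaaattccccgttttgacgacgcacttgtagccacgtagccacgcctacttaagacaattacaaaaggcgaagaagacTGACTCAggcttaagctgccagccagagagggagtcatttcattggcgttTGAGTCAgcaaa
κB letters were in 6 of the 14 SASP cytokine promoters with a window (42.9%), against 7.7% of the 10337 tested genes with one, and AP-1 letters were in 3 of the 14, against 4.7%. Of the NF-κB list, 7 of 22 held κB letters. So did 2 of 6 HOXA and MEIS genes, 5 of 18 interferon-stimulated genes and 4 of 15 collagens. None was found in 8 SASP protease and 29 ribosomal protein promoters. Letters of a sterol regulatory element were searched as well, and 1 of 18 sterol synthesis promoters (SREBF2) held them, against 1.2% of the tested genes. A match describes letters only. CXCL1 and IL6 both held κB letters, and their log2 changes in RAS/shDOT1L were 7.54 and 1.68.

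SASP proteases also kept part of their rise. The summed level of their list was 7657 to 7809 CPM in Control, 12391 to 12564 in RAS/shDOT1L and 28541 to 29726 in RAS. Of 16 tested genes of the list, 12 were higher and 3 lower, with a median log2 change of 0.66 against 1.38 in RAS, and 11 of the 12 were higher in RAS too and lay between the parents. The collagenase MMP1 was at 86.5, 90.3 and 90.7 CPM in Control, 1319, 1309 and 1283 in RAS/shDOT1L and 6258, 6480 and 6479 in RAS. MMP3, the stromelysin, was at 15.3, 16 and 18.7 CPM in Control, 405, 384 and 392 in RAS/shDOT1L and 3459, 3752 and 3528 in RAS. No libraries of the 3 groups overlapped for either gene, and the log2 changes against Control were 3.87 ± 0.04 and 4.56 ± 0.07 (edgeR adjusted p = 9.88e-34 and 5.77e-31). The urokinase PLAU was 5.13-fold above Control. Among the lower genes were ADAMTS1, an aggrecan-cleaving protease that was 4.02-fold below Control (mean 62.9 against 254 CPM), and TIMP2, an inhibitor of matrix metalloproteases with a log2 change of -1.04, both below RAS as well. TIMP3, another such inhibitor, turned from lower in RAS (log2 change -1.69) to higher in RAS/shDOT1L (0.37).

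Growth factors of the SASP split. Of 25 tested, 13 were higher and 6 lower (median log2 change 0.43, against 1.06 in RAS). INHBA, the activin A subunit, was at 138, 140 and 139 CPM in Control, 514, 555 and 553 in RAS/shDOT1L and 577, 581 and 585 in RAS, 3.91-fold above Control and with no call against RAS (log2 difference -0.09, edgeR adjusted p = 0.0966). STC1, a secreted glycoprotein hormone, lay between the parents at 495 ± 14 CPM (mean ± SD, n = 3), against 126 ± 2.39 in Control. IGFBP3, which binds insulin-like growth factors, went the other way from RAS: it read 1121, 1127 and 1082 CPM in Control, 615, 614 and 592 in RAS and 2468, 2397 and 2426 in RAS/shDOT1L, so that it was 2.2-fold above Control where RAS was below it. The lower genes were FGF2, FGF7, TGFB2, STC2, IGFBP5 and IGFBP6, at log2 changes from -1.88 to -0.63.

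Of 25 tested NF-κB components and targets, 17 rose and 1 fell (MYD88, an adaptor of interleukin 1 receptors), with a median log2 change of 0.75 against 1.62 in RAS. Complement C3 stood at 240 ± 8.6 CPM against 13.7 ± 0.538 in Control, the RNase ZC3H12A at 107 ± 4.61 against 8.47 ± 1.31, and the adhesion molecule ICAM1 at 183 ± 1.76 against 65.2 ± 2.87 (log2 changes 4.14, 3.67 and 1.49). RELA, the p65 subunit, was at 198, 213 and 222 CPM in Control and 217, 205 and 198 in RAS/shDOT1L, overlapping values without a call (log2 difference -0.02, edgeR adjusted p = 0.722), although the GC offset gave -0.18 and an adjusted p of 0.0047. CEBPB, which encodes C/EBPβ, was 1.81-fold above Control at 149, 146 and 148 CPM against 84.6, 87.1 and 73.8, and STING1, which relays the detection of cytosolic DNA, was 1.58-fold above it (edgeR adjusted p = 8.83e-13 and 2.56e-06). Both lay below RAS.

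The output of the RAS-MAPK pathway, which HRAS G12V feeds, stayed on in part. Of 30 tested output and feedback genes, 19 were higher and 3 lower than Control, with a median log2 change of 0.40 against 1.10 in RAS. IER3, an immediate early gene, was at 120, 130 and 123 CPM in Control, 500, 495 and 485 in RAS/shDOT1L and 1912, 2017 and 1970 in RAS. DUSP5, a phosphatase that acts on ERK in the nucleus, rose past RAS, with 38.4, 40.1 and 45.7 CPM in Control, 105, 91.5 and 91.4 in RAS and 186, 175 and 184 in RAS/shDOT1L (log2 change 2.14 ± 0.07, edgeR adjusted p = 3.77e-22). The AP-1 member JUNB was 4.47-fold and the chromatin protein HMGA1 2.1-fold above Control. The 3 lower genes were the feedback phosphatases DUSP1 and DUSP7 and the RAS antagonist SPRY1, the last at 1.71 CPM against 5.04 in Control.

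Of 28 genes of glycolysis and hypoxia, 17 were higher and 4 lower (median log2 change 0.45, RAS 0.66). The kinase-phosphatase PFKFB4, which sets the level of a glycolytic activator, read 9.86, 11.3 and 12 CPM in Control, 41.7, 34.9 and 43.2 in RAS and 89.3, 89.4 and 83.3 in RAS/shDOT1L, beyond RAS with no overlap. ENO1 and GPI, enzymes of glycolysis, were 1.99-fold and 2.26-fold above Control. The lactate exporter SLC16A3 turned: at 604, 536 and 580 CPM in Control and 1410, 1439 and 1458 in RAS, it was at 253, 256 and 272 in RAS/shDOT1L, 2.19-fold below Control (edgeR adjusted p = 3.03e-19). Of 24 genes of the unfolded protein and integrated stress response, 15 were higher and 3 lower (median 0.37, RAS 0.44), with the glutathione-degrading enzyme CHAC1 at 228 ± 3.9 CPM against 46.2 ± 5.44, the chaperone DNAJC3 at a log2 change of 0.92 and the transcription factor ATF4 at 0.39. With an offset for GC content and length together, ATF4 was at 0.09 (adjusted p = 0.109).

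**Figure D4:**
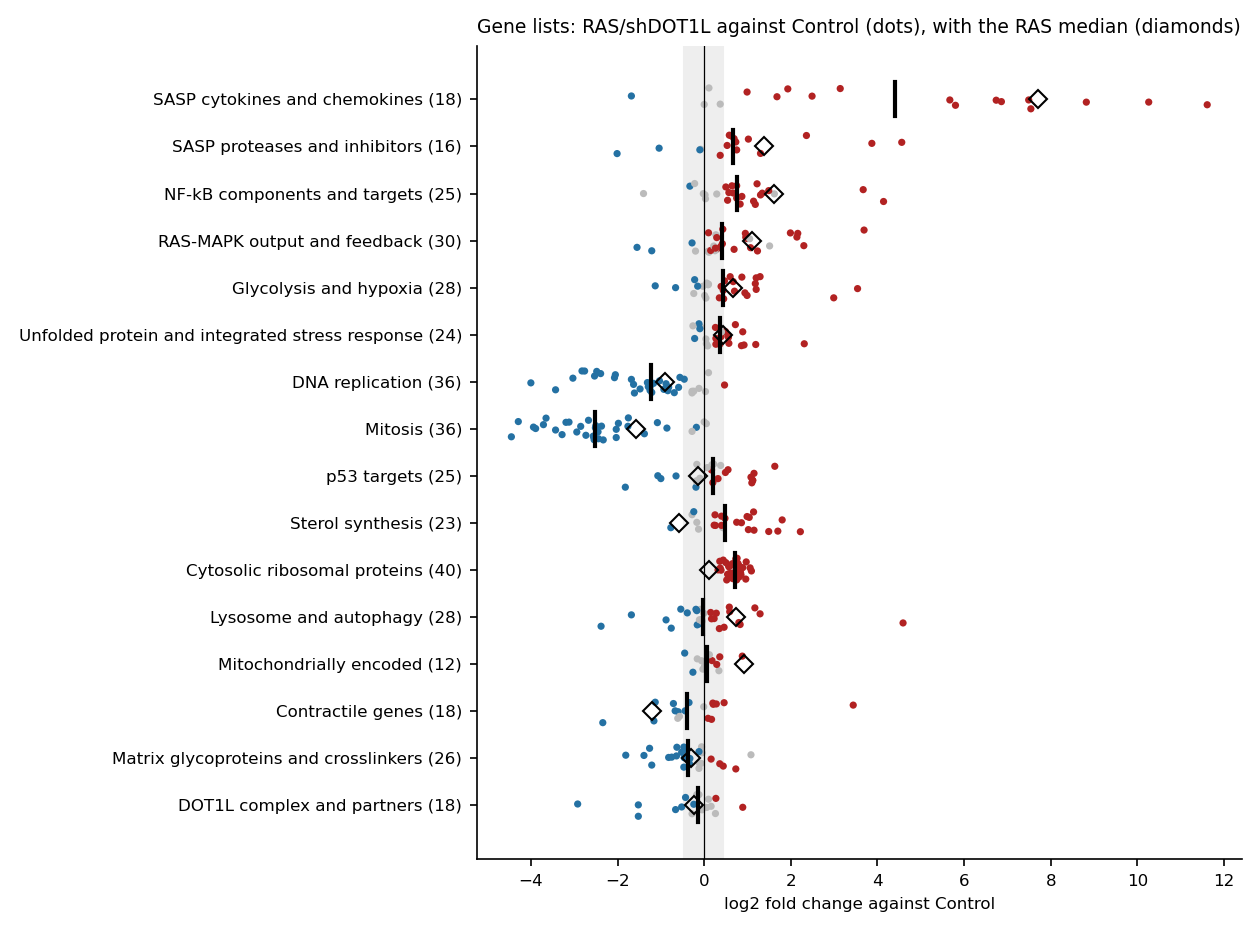
Log2 fold change of RAS/shDOT1L against Control (horizontal axis) for each tested member of 16 gene lists (vertical axis, number of members in parentheses), red for higher, blue for lower and grey for no call, with a black bar for the median of the list, a diamond for its median in RAS against Control and a grey band for the quartiles of all genes. The medians of the SASP lists lie above 0 and short of the RAS diamonds, those of mitosis and DNA replication lie below 0 and past them, and those of sterol synthesis and ribosomal proteins lie above 0 where RAS is lower or near 0.

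The proliferative program was lower than in Control, and for many genes lower than in RAS. Of 36 mitosis genes, 33 were lower and 0 higher than Control by edgeR, DESeq2 and limma-voom alike, and 0 higher at an unadjusted edgeR p under 0.05, with a median log2 change of -2.52 against -1.57 in RAS, and 14 of the 32 testable in all comparisons were below both parents (10.7% of all genes were). The count below both parents was 22 of 36 with 1 fit over all groups. It was 12 of 32 when only library size was scaled for and with the length offset. Without any 1 RAS library, or without RAS/shDOT1L replicate 3, it was 11 of 32 or 33. Of 36 DNA replication genes, 29 were lower and 1 higher (median -1.23, RAS -0.91), and 14 of 35 were below both parents. MKI67, the proliferation marker, was at 29.9, 29.4 and 25 CPM in Control, 5.24, 5.81 and 5.68 in RAS and 1.76, 1.25 and 1.26 in RAS/shDOT1L. RRM2, the small subunit of ribonucleotide reductase, read 81.9, 78.1 and 79.1 CPM in Control, 28.8, 27.1 and 27.1 in RAS and 7.43, 9.22 and 5.49 in RAS/shDOT1L. Both fell stepwise without overlap, to log2 changes of -4.29 ± 0.20 and -3.43 ± 0.12 against Control (edgeR adjusted p = 6.41e-18 and 7.01e-21). CDK1, the kinase of mitotic entry, was 10.8-fold, the spindle midzone protein PRC1 14.9-fold and the abscission protein CEP55 17.5-fold below Control. CCNA2, cyclin A2, read 2.48, 2.13 and 1.64 CPM against 16.4, 17.2 and 14.8 (log2 change -2.94), and LMNB1, a lamin lost in senescence, 0.717, 1.69 and 2.14 against 10.4, 9.05 and 6.78 (log2 change -2.51, edgeR adjusted p = 5.08e-08). MCM7, a subunit of the replicative helicase, had no call in RAS and was 2.05-fold below Control in RAS/shDOT1L, while RAS was called lower when only library size was scaled for (-0.25) and with the GC offset (-0.50).

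Of the inhibitors of cyclin-dependent kinases, CDKN1A, CDKN2A and CDKN2B were higher, CDKN2C and CDKN2D were lower, and CDKN1B and CDKN1C had no call. CDKN1A, which encodes p21, was at 1620, 1634 and 1637 CPM in Control, 2767, 2810 and 2818 in RAS and 3556, 3528 and 3497 in RAS/shDOT1L, above both parents without overlap (2.17-fold over Control, edgeR adjusted p = 2.46e-23). CDKN2A, which encodes p16 and ARF, was at 60.3, 69.8 and 67.8 CPM against 30.1, 26.6 and 30.9 in Control, 2.26-fold higher, and CDKN2B, which encodes p15, 1.85-fold higher. Over the list of 20 kinase inhibitors, G1 cyclins, their kinases and pocket proteins, 6 genes were higher and 8 lower. The G1 cyclin CCND2 was 1.94-fold above Control where RAS was below it, CCND3 1.5-fold above it, and CCND1 at a log2 change of 0.10 that was not called when only library size was scaled for (-0.01) or the GC offset (0.03). Lower were CDK6 (3.37-fold), CCNE2, E2F1, RBL1, CDKN2C, RB1, CDKN2D and E2F2, the last with 0 counts in RAS/shDOT1L and 50 in Control, at least 13.58-fold lower. Without RAS/shDOT1L replicate 3 the log2 change of CCNE2 was -5.12 in place of -4.17, the RB1 call ended with the GC offset (-0.16, adjusted p = 0.162), and the CDKN2D call ended when any of 4 libraries was left out (adjusted p = 0.0546 to 0.0695). CDK2, CDK4, CDKN1B, CDKN1C, CCNE1 and RBL2 had no call, with log2 differences from -0.15 to 0.39, and CCNE1 was called higher by limma-voom (0.40, adjusted p = 0.0439) and without Control replicate 2 (0.54, adjusted p = 0.0223). Of 25 p53 targets, 11 were higher and 5 lower (median 0.20, RAS -0.14), with PLK3 and BAX 3.1-fold and 2.14-fold higher and the death receptor TNFRSF10B lower, at 70.6, 71.1 and 72.2 CPM against 249, 255 and 254 in Control and 294, 315 and 316 in RAS.

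Beyond the lists, the largest rises over Control were in genes with few or no Control counts. The cystatin CST1 had 0 counts in Control and read 31.4, 38.3 and 36.4 CPM in RAS and 75.1, 64.6 and 70.7 in RAS/shDOT1L, at least 1350-fold above Control and 2.01-fold above RAS (edgeR adjusted p = 6.9e-12). Its paralog CST4 was at least 623.3-fold and the acute phase protein SAA1 at least 307.1-fold above Control, both also past RAS. LCE1F, a protein of the cornified envelope of skin, was at 222, 203 and 197 CPM in RAS/shDOT1L against 0.31, 0 and 0.201 in Control and 375, 402 and 385 in RAS. The epithelial transcription factor EHF (33.3 CPM, Control 0.176), the synuclein SNCB (14.7, Control 0.0711) and the mineralization gene ODAPH (32.8, Control 0.0684) followed. Leaving out a Control library moved several of these log2 changes: ODAPH from 8.76 to 9.95 and LCE1F from 10.17 to 10.86 without Control replicate 1, SNCB from 7.59 to 8.81 and EHF from 7.54 to 8.26 without Control replicate 2. CST1 and CST4, SAA1, and the LCE genes have near-identical paralogs, and their counts are uncertain where reads could be shared. CST1, CST4, SAA1, LCE1F, EHF, SNCB, ODAPH and, below, G0S2 passed the filter only through the RAS/shDOT1L libraries. Their direction was therefore largely set by the filter. Other genes that rose past RAS were G0S2, an inhibitor of fat breakdown, at 45.5 CPM against 20.5 in RAS and 0.286 in Control (log2 change 7.33, or 9.61 without Control replicate 2), RRAD, a small GTPase, at 213 against 92.8 and 5.04, and the cornified envelope genes LCE2C and LCE2B.

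Some of the genes that stayed high had no call against RAS. AMPD3, an AMP deaminase, was at 28.3, 37.1 and 30.9 CPM in Control, 381, 364 and 362 in RAS and 359, 363 and 394 in RAS/shDOT1L. LCE2A read 13.5, 16.4 and 16.8 CPM in Control, 386, 396 and 397 in RAS and 382, 374 and 376 in RAS/shDOT1L, and the chondroitin sulfotransferase CHST11 2.73, 1.89 and 3.42 CPM in Control, 38.1, 40.3 and 35.2 in RAS and 28.4, 41.9 and 33.3 in RAS/shDOT1L. The RAS and RAS/shDOT1L libraries overlapped for AMPD3 and CHST11, while LCE2A was slightly lower in all 3 RAS/shDOT1L libraries without a call against RAS (log2 difference -0.04, edgeR adjusted p = 0.479). The phosphatase ACP3, the trypsinogen PRSS3 and the antisense transcript RIPOR3-AS1, which without a stated strand setting cannot be told apart from its partner, also had no call against RAS, at log2 differences of 0.17, 0.14 and 0.00. On the lower side, the receptor tyrosine kinase KIT was at 2.8, 1.13 and 0.946 CPM against 9.8, 12.5 and 8.95 in Control (log2 change -2.67, or -3.31 without RAS/shDOT1L replicate 1) and the extracellular matrix protein RELN at 0.978, 1.25 and 0.379 against 11.6, 12 and 11.4, with no call against RAS for either. SEMA6A, PTPRB and TMEM178B were of the same kind, at log2 changes from -2.81 to -2.62 against Control.

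Among genes that fell below both parents, CHRM2, a muscarinic acetylcholine receptor, was at 132, 148 and 129 CPM in Control, 17.5, 24 and 19.7 in RAS and 2.28, 4.64 and 3.28 in RAS/shDOT1L (39.7-fold below Control, edgeR adjusted p = 1.41e-25). ADAMTS5, an aggrecanase, read 53.4, 53.8 and 54.7 CPM in Control, 26.9, 23.7 and 23.9 in RAS and 3, 1.63 and 2.9 in RAS/shDOT1L, and CEMIP, which takes part in hyaluronan breakdown, 46.1, 47.5 and 47.8 CPM in Control, 29.6, 23 and 32.7 in RAS and 3.2, 3.45 and 4.04 in RAS/shDOT1L. Each of the 3 was lowest in RAS/shDOT1L, with no overlap between groups. RGMB, a co-receptor of bone morphogenetic proteins, was 5.88-fold, LRRN3 9.21-fold, NT5DC3 8.81-fold and WDR76 12.9-fold below Control, all also below RAS. OXTR, the oxytocin receptor, came back in part, from 0.238, 0 and 0.0638 CPM in RAS to 4.04, 3.64 and 3.91 in RAS/shDOT1L against 18.1, 20.5 and 20.5 in Control, and LZTS1, GAL3ST4 and SH2D5 did likewise, at means of 4.21, 3.96 and 6.63 CPM against 20.9, 19.2 and 37.4 in Control. So did the growth factor EGF and the germ-cell transcription factor MYBL1 (log2 changes against Control -2.44 and -2.41, in RAS -4.78 and -3.92).

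Genes that RAS had lowered and that had no call against Control in RAS/shDOT1L were led by DYSF, which acts in membrane repair. DYSF was at 16.5, 14.3 and 15.7 CPM in Control, 1.25, 2.42 and 1.79 in RAS and 15.3, 11.1 and 15.5 in RAS/shDOT1L, and ARHGAP29, a RhoA-inactivating protein, at 99.4, 93.5 and 97 CPM in Control, 17.3, 15.7 and 17.6 in RAS and 95.7, 87.5 and 97.3 in RAS/shDOT1L. Control and RAS/shDOT1L overlapped for both, with log2 differences of -0.15 (95% interval -0.47 to 0.17) and -0.04 (-0.17 to 0.09), and ARHGAP29 was called higher with the GC offset (0.16, adjusted p = 0.0435) and lower when only library size was scaled for (-0.16, adjusted p = 0.0434). The sarcomeric protein SYNPO2L, the AMP-activated kinase subunit PRKAG2, the cholesterol transporter STARD4 and the adaptor TRAF5 had log2 differences from -0.17 to 0.28 against Control, with SYNPO2L called higher with the length offset (0.42, adjusted p = 0.012) and STARD4 lower when only library size was scaled for (-0.29, adjusted p = 0.0252). Genes that RAS had raised and that lost their call were, after PTGS2 and LIF, the nuclear receptor NR4A3, the AP-1 member FOSB, the Wnt antagonist NKD2 and GREM1-AS1, an antisense transcript. Their RAS/shDOT1L means were 1.27, 2.1, 2.56 and 2.24 CPM against 0.813, 1.01, 1.4 and 1.37 in Control, and FOSB, NKD2 and GREM1-AS1 were called higher in 1 fit over all 4 groups (adjusted p = 0.0101, 0.0168 and 0.0355).

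Contractile genes, which RAS had lowered for 16 of 18, came back unevenly, with 7 above and 8 below Control in RAS/shDOT1L (median log2 change -0.39, RAS -1.21). CNN1, a smooth muscle calponin, was at 498, 536 and 532 CPM in Control, 174, 195 and 172 in RAS and 345, 315 and 321 in RAS/shDOT1L, and the myosin kinase MYLK at 912 ± 50.1 CPM against 1500 ± 12.8. Both lay between the parents. ACTA2, smooth muscle actin, turned from 258 CPM in RAS to 613, above the Control mean of 535. The actin linkers VCL and FLNA lay below both, at log2 changes of -1.13 and -0.60 against Control. Mitochondrially encoded genes, all 12 tested of which were higher in RAS (median 0.91), had a median log2 change of 0.07 in RAS/shDOT1L, with 4 higher and 2 lower. MT-ND3 and MT-CO2 were 1.84-fold and 1.22-fold above Control and MT-CO1 1.19-fold below it. The direction of MT-CO2 and of MT-ND6 turned with the length offset (log2 change -0.19 and -0.11), and nuclear copies of mitochondrial sequence can share such reads.

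Changes seen in neither parent were counted where RAS/shDOT1L was called on one side of both Control and RAS and RAS itself was not called on that side of Control. There were 1111 such genes on the higher side (8.59% of 12927) and 997 on the lower side (7.71%). RAS was not called against Control for 708 and 508 of them, and it was called on the opposite side for 403 and 489. The comparisons with Control and with RAS share the RAS/shDOT1L libraries, which by itself makes their calls alike. A gene without a call in RAS is not shown to be unchanged there. With the GC offset the counts were 1152 and 1126, of which 714 and 660 were shared.

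**Figure D5:**
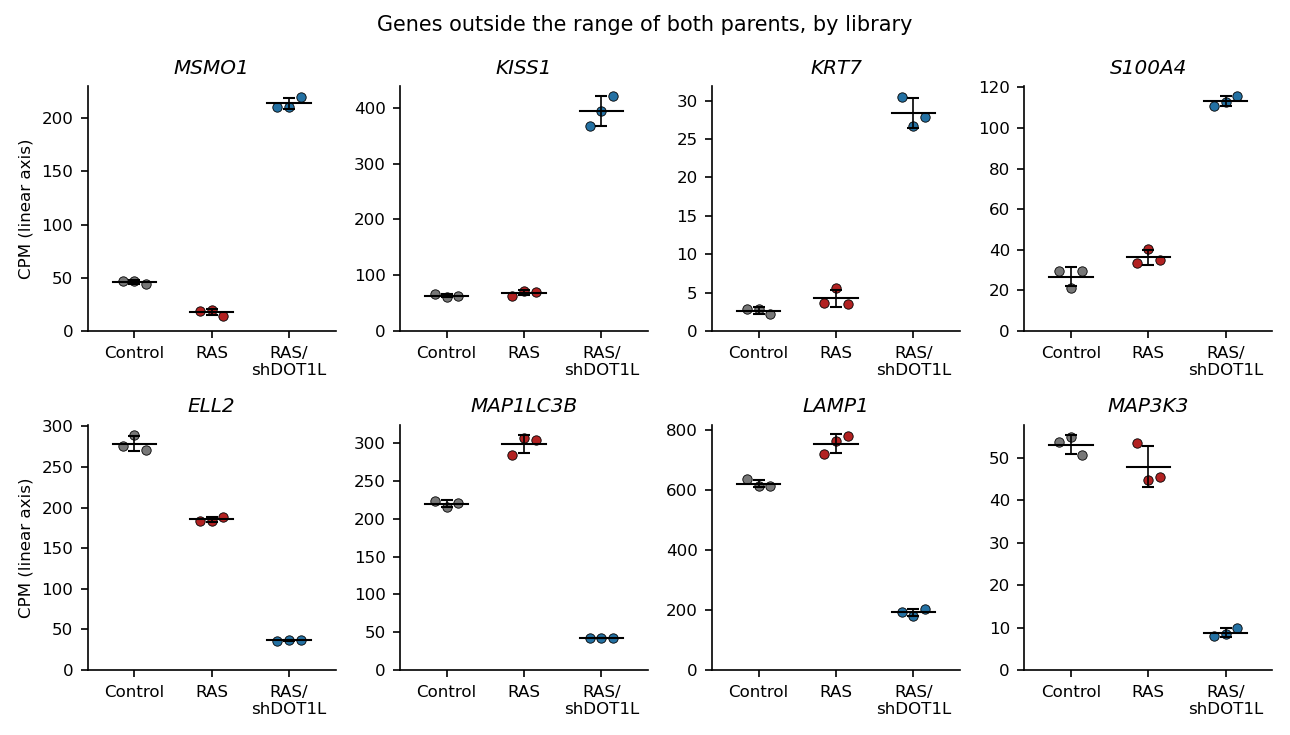
CPM on linear axes of 8 genes in each library of Control, RAS and RAS/shDOT1L, with a horizontal line for the mean and error bars for the SD of 3 libraries. In the upper row (MSMO1, KISS1, KRT7, S100A4) the 3 RAS/shDOT1L libraries lie above all 6 libraries of the parents, and in the lower row (ELL2, MAP1LC3B, LAMP1, MAP3K3) they lie below them.

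Sterol synthesis, the pathway from acetyl-CoA to cholesterol that SREBP2 controls, was lower in RAS and higher in RAS/shDOT1L. Of 23 tested genes, 17 were above and 2 below Control (median log2 change 0.48, RAS -0.58), and 17 were above both parents, where 12.2% of all genes were. MSMO1, a sterol methyl oxidase, was at 47.4, 46.9 and 43.8 CPM in Control, 19.2, 19.4 and 14.2 in RAS and 211, 211 and 220 in RAS/shDOT1L. HMGCS1, an early synthase of the pathway, was at 20.7, 21 and 21.6 CPM in Control, 9.83, 14.4 and 15.4 in RAS and 58.4, 63 and 56 in RAS/shDOT1L, and the squalene synthase FDFT1 at 140, 141 and 128 CPM in Control, 140, 133 and 129 in RAS and 296, 303 and 300 in RAS/shDOT1L. RAS/shDOT1L lay above both parents without overlap for all 3, at log2 changes against Control of 2.22 ± 0.06, 1.49 ± 0.10 and 1.14 ± 0.05 (edgeR adjusted p = 7.43e-24, 3.04e-14 and 2.12e-18). INSIG1, which holds the SREBP activator in the endoplasmic reticulum, was 3.49-fold above Control. PMVK, a kinase of the mevalonate pathway, was lower (log2 change -0.77). The count above both parents was 14 to 17 over the other scalings, tests and offsets. Fatty acid synthesis moved less as a group, with 5 of 15 genes higher and 3 lower (median 0.12): ACLY, which makes cytosolic acetyl-CoA, was 2.14-fold above Control and above RAS, FASN and MID1IP1 lay between the parents, and SREBF1 was below both (log2 change -0.46).

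All 40 cytosolic ribosomal protein genes of the list were above Control and all 40 above RAS as well (median log2 change 0.71 against Control, range 0.32 to 1.09, RAS median 0.12). RAS itself was above Control for 20 of the 40 and below it for 8, so that the 20 rose past RAS and are not among the changes seen in neither parent. RPS3 was at 881, 825 and 869 CPM in Control, 1006, 1054 and 1063 in RAS and 1722, 1630 and 1625 in RAS/shDOT1L, and RPL35 at 455, 446 and 449 CPM in Control, 531, 556 and 629 in RAS and 987, 933 and 875 in RAS/shDOT1L. The list took 28120 to 29265 CPM in Control and 43945 to 46265 in RAS/shDOT1L. These genes are short, with a median of 2084 bases for the longest annotated transcript of each, and short transcripts were higher in general (above). The length offset used these annotated lengths, which need not be those of the expressed transcripts. With an offset for GC content and length, 35 were still above both parents and 38 above Control, and the log2 change of RPL35 was 0.47 in place of 1.06. Processed pseudogenes share sequence with these genes, so that single values are uncertain.

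Lysosome and autophagy genes were higher in RAS for 21 of 28, and in RAS/shDOT1L 13 were above and 10 below Control (median log2 change -0.03, RAS 0.73), with 10 of 28 below both parents. MAP1LC3B, the LC3 protein of autophagosome membranes, was at 224, 215 and 221 CPM in Control, 285, 307 and 304 in RAS and 42, 42.4 and 42.1 in RAS/shDOT1L. LAMP1, the major lysosomal membrane glycoprotein, read 636, 615 and 614 CPM in Control, 720, 763 and 782 in RAS and 195, 180 and 203 in RAS/shDOT1L. Both were lowest in RAS/shDOT1L in every library (5.2-fold and 3.21-fold below Control, edgeR adjusted p = 9.73e-25 and 8.17e-24), although RAS had raised them. The cathepsins CTSB and CTSS kept part of their rise, 1.49-fold and 24-fold above Control.

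Among single genes outside both parents, KISS1, which encodes kisspeptin, was at 66.6, 61.1 and 61.9 CPM in Control, 63.2, 72.1 and 69.6 in RAS and 367, 395 and 421 in RAS/shDOT1L (6.26-fold over Control, edgeR adjusted p = 1.09e-26). KRT7, a keratin of simple epithelia, read 2.89, 2.91 and 2.21 CPM in Control, 3.63, 5.57 and 3.57 in RAS and 30.5, 26.7 and 27.9 in RAS/shDOT1L, and RPIA, an enzyme of the pentose phosphate pathway, 1.08, 1.51 and 1.86 CPM in Control, 1.79, 2.85 and 2.36 in RAS and 17.2, 15.8 and 14.9 in RAS/shDOT1L. None of the RAS/shDOT1L libraries overlapped with either parent. The transcription factor HES2, the TFIID subunit TAF11 and ANKRD46 were 5.26-fold, 3.97-fold and 5.34-fold over Control. In 1 fit over all 4 groups, RAS was called above Control for KRT7 too. S100A4, a calcium-binding protein of fibroblasts, was not of this class, since RAS was called above Control (log2 change 0.44) except when only library size was scaled for and with the GC or length offsets. It was at 29.5, 21.3 and 29.4 CPM in Control, 33.7, 40.3 and 34.8 in RAS and 111, 113 and 116 in RAS/shDOT1L, above both (log2 change 2.09 ± 0.09).

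On the lower side, MAP3K3, a kinase upstream of NF-κB and MAP kinases, was at 53.8, 55 and 50.7 CPM in Control, 53.5, 44.7 and 45.5 in RAS and 8.02, 8.47 and 10 in RAS/shDOT1L (5.98-fold below Control, edgeR adjusted p = 6.75e-18). FBXO7, a ubiquitin ligase subunit, read 112, 106 and 107 CPM in Control, 120, 117 and 116 in RAS and 41, 32.9 and 25.9 in RAS/shDOT1L. Neither gene was called between RAS and Control. The neuronal pentraxin NPTX1, PNMA1, the protocadherin PCDH18 and the ribosome biogenesis factor KRR1 had log2 changes from -2.09 to -1.67 against Control. Where a GC offset entered, RAS was called against Control for all 6, lower for MAP3K3, NPTX1 and PNMA1 and higher for PCDH18, FBXO7 and KRR1, as well as lower for KISS1 (log2 change -0.53), while RAS/shDOT1L stayed below both parents for the 6 genes and above both for KISS1.

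Some genes lay on opposite sides of Control in RAS and RAS/shDOT1L. Those above Control in RAS and below it in RAS/shDOT1L were led, after DOT1L itself, by JUP, which encodes the junction protein plakoglobin. JUP was at 166, 173 and 180 CPM in Control, 557, 553 and 576 in RAS and 65.6, 63.7 and 81.6 in RAS/shDOT1L, with no overlap between any of the groups. The pro-apoptotic BAK1, the exonuclease USB1 and FBRS were also raised by RAS and 2.2-fold, 2.38-fold and 2.33-fold below Control in RAS/shDOT1L. The other way round went MSMO1 (above), at a log2 change of -1.38 in RAS and 2.22 in RAS/shDOT1L. FERMT2, the integrin activator kindlin-2, was at 89, 98.7 and 95.5 CPM in Control, 47.3, 49.1 and 47.5 in RAS and 177, 180 and 195 in RAS/shDOT1L. PSTPIP2, SGTB, GRAMD2B and TUFT1 were 2.42-fold, 2.31-fold, 1.91-fold and 1.86-fold above Control after being lower in RAS.

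Of 18 tested genes of the DOT1L complex and its partners, 2 were higher and 7 lower than Control (median log2 change -0.15). ELL2, an elongation factor of the super elongation complex, was lowest in RAS/shDOT1L, with 276, 289 and 271 CPM in Control, 184, 184 and 189 in RAS and 36, 37 and 37.3 in RAS/shDOT1L (7.55-fold below Control, edgeR adjusted p = 2.72e-27). Its relative ELL was 1.86-fold above Control (25.5 against 13.8 CPM), below the RAS mean of 48.9. AFF1 (log2 change -0.66) and BCAT1 (-1.52) were lower in RAS too. So were AFF3 (-0.52) and AFF4 (-0.43), whose calls ended with the length offset (edgeR adjusted p = 0.239 and 0.093). BCAT1 was on the list and counts among the 7 lower, but it encodes an amino acid aminotransferase and not a member of the DOT1L complex. RNF40, a partner of the H2B ubiquitin ligase, was higher (0.27), which ended when only library size was scaled for and with the GC offset (adjusted p = 0.0535 and 0.369). The fusion partners MLLT1, MLLT3 and MLLT10, the ligase RNF20, the ubiquitin-conjugating enzymes UBE2A and UBE2B, NPM1, SIRT1 and the demethylase KDM2B had no call, at log2 differences from -0.28 to 0.26. Several of these gained a call elsewhere. KDM2B and MLLT1 were called lower when only library size was scaled for (-0.40 and -0.29) and with the GC offset (-0.43 and -0.36), and KDM2B also without RAS/shDOT1L replicate 3 (-0.49). MLLT3 was called higher with the GC and length offsets (0.45 and 0.46) and without RAS/shDOT1L replicate 2 (0.43), and UBE2B with the GC offset (0.39). NPM1 was called higher by DESeq2 (0.11), limma-voom (0.10), another scaling and another filter, with the GC offset (0.30) and without RAS/shDOT1L replicate 3 (0.13). UBE2A was lower with library size (-0.17) and with the length offset (-0.14) and higher with the GC offset (0.19), and KDM4D was under 1 CPM and not tested. Of 16 listed HOXA and MEIS genes, known targets of DOT1L in leukemia, 9 were tested, and 2 were higher and 3 lower. Their log2 changes ran from -1.37 to 1.57, the latter in HOXA5 at 4.25 against 1.43 CPM. Over all genes tested, 27.9% were higher and 27.5% lower.

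Of 26 matrix glycoproteins and crosslinkers, 4 were higher and 16 lower (median log2 change -0.37, RAS -0.30), and of 22 collagens 10 were higher and 9 lower. Fibronectin, FN1, was at 5165, 5297 and 5139 CPM in Control, 3662, 3595 and 3580 in RAS and 2166, 2227 and 2319 in RAS/shDOT1L, and COL12A1 at 1485, 1564 and 1463 CPM in Control, 768, 729 and 725 in RAS and 379, 425 and 466 in RAS/shDOT1L. Both fell stepwise without overlap, to 2.32-fold and 3.54-fold below Control. The small proteoglycan DCN and the collagens COL3A1 and COL6A3 were 2.62-fold, 2.03-fold and 2.04-fold lower, while COL7A1, the anchoring fibril collagen, rose 6.51-fold, as it had in RAS. Of 23 interferon-stimulated genes, 3 were higher and 11 lower (median -0.36, RAS -0.30), with IRF1 1.74-fold above and the sensor RIGI and STAT2 1.68-fold and 1.74-fold below Control. Of 12 tested genes of the list on cytosolic DNA sensing, 5 were higher and 3 lower. STING1 and the helicase DDX41 were among the higher. LMNA and LMNB1, which encode nuclear lamins and not sensors, were among the lower.

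The libraries kept the markers of fibroblasts, with 12 of 12 tested and a summed level of 19892 to 20123 CPM in Control, 15005 to 15442 in RAS and 16596 to 17218 in RAS/shDOT1L. Of the 12, 2 were higher and 8 lower than Control in RAS/shDOT1L (median log2 change -0.30). Of 10 epithelial lineage markers, 0 passed the filter, SFTPC and NKX2-1 were listed at 0, and their sum was 0.6534 to 3.612 CPM in Control and 1.072 to 1.826 in RAS/shDOT1L. Of 12 immune cell markers, 2 passed, PTPRC was under 1 CPM and CD68 and ITGAM were listed at 0, and CSF1R rose from 0.192 to 2.14 CPM, within a sum of 1.608 to 2.317 CPM in Control and 1.568 to 5.11 in RAS/shDOT1L. Of 9 endothelial markers found, 6 passed, with 5 higher and 1 lower: TIE1 went from 0.409 to 6.01 CPM, ESAM from 1.59 to 10.1 and EGFL7 from 7.57 to 16.1, TEK fell to 23.5 from 67.1, and CDH5 and ERG had 0 counts in Control and 5 and 1 in RAS/shDOT1L. The endothelial sum was 74.25 to 79.86 CPM in Control and 57.47 to 62.99 in RAS/shDOT1L. TIE1 and CSF1R had Control means under 1 CPM and passed the filter only through the RAS/shDOT1L libraries. Among keratins and junction genes, 7 of 11 tested were higher and 3 lower, with KRT18 at 220 ± 1.98 CPM against 111 ± 8.07 and KRT19 at 48.9 ± 7.15 against 115 ± 1.62, while EPCAM and CDH1 stayed under 1 CPM. Whether other cells take part in these values was not tested.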

How the data were processed

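Count tables were deposited for all libraries. The authors' raw counts per gene came from reads aligned to GRCh38, and the processing notes name STAR 2.6.1 and DESeq2 2. The strand setting is not given in the sources used here. The tables hold gene IDs without summary lines, and 93.5% of the IDs stood in the name table. Using edgeR 4.0.16 (R 4.3.3), genes were filtered with filterByExpr, scaled by TMM, fitted with glmQLFit (robust) and tested two-sided, each pair of groups in its own fit, with Benjamini-Hochberg adjustment over all genes tested. SE is the absolute log2 change over the root of F. CPM used TMM over all 12 libraries, and 95% intervals are the log2 change and its SE under a normal approximation. Alternatives were DESeq2 1.42.0, limma-voom 3.58.1, other scalings and filters, 1 fit over all groups, a replicate block, offsets for GC content or transcript length, and leaving out each library. The tests were tried on simulated counts. Coordinates are from GENCODE 44. Members and lists were chosen with earlier results of these data known. Named were the genes the study centres on, the 10 largest rises and falls and the 6 leading genes of each class (mean of at least 10 CPM in the higher group, no overlap of the defining groups), up to 4 called members of each list with the smallest p, and all partners of DOT1L and G1 regulators. Other list members were named after their values were seen, and some genes are not reported here. Count intervals and floors cover counting error only.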

Additional observations from a re-analysis of the deposited data

How the results depend on the processing

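Over all alternatives the number of genes changed stayed within 1.5 times 7480, from 7219 with the offset for GC content and length to 7757 with 1 fit over all groups, and between 6740 and 7313 when a library was left out (3428 to 3638 higher, 3312 to 3675 lower). Of the 7480 calls, 5996 (GC content and length) to 7441 (limma-voom) were shared in the same direction, and 1, 31 and 62 were reversed with the GC, length and combined offsets, the last 2 chosen after seeing the data. Changes of over 1.5-fold numbered 2298 to 2560 when a library was left out. With a replicate block, which assumes that equal numbers pair Control and RAS/shDOT1L, 7269 genes were called, 3634 higher, and 7225 calls were shared. Deviations of same-numbered libraries correlated at 0.001, -0.006 and -0.004, so the numbers were not taken as pairs.

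Requiring over 1.5-fold in every comparison left 685 genes that stayed higher, 692 that stayed lower, 22 and 20 on the opposite side of Control, and 259 and 255 outside both parents on the higher and lower side, by the stricter construction. Leaving out a library gave 2187 to 2396 genes that stayed higher, 2083 to 2336 that stayed lower, 1204 to 1485 and 1334 to 1615 without a call, 403 to 499 and 296 to 388 on the opposite side, and 969 to 1105 and 914 to 1002 outside both parents. Of the log2 changes of named genes under the alternatives, 3404 kept their direction and side of the threshold, 33 became called, 22 lost the call and 8 reversed. Reversed were ARHGAP29 (0.16, 0.25 and 0.38 with the GC, length and combined offsets), CCND1 (-0.01 with library size only), MT-ND6 (-0.11 with the length offset), MT-CO2 (-0.19 and -0.11 with the length and combined offsets) and UBE2A (0.19 with the GC offset). The cause was not tested beyond these offsets. Genes with few Control counts, such as TIE1 (log2 change 3.88, or 5.48 without Control replicate 2 and 3.29 without Control replicate 3), are limited by depth.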

Other observations

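Other gene families were counted after their values were seen. Of 22 tested NDUFA and NDUFB genes, most of which encode subunits of respiratory complex I, 20 were above Control in RAS/shDOT1L by edgeR. Their median log2 change was 0.54 (RAS 0.08), and 15 of the 22 were above both parents. NDUFA4, whose protein is placed in complex IV, and its relative NDUFA4L2 were counted among the 20. Of 16 tested PSMA and PSMB genes, which encode the core of the proteasome, 12 were higher and 1 lower (median 0.79, RAS 0.34), with 11 above both parents. Over all genes, 27.9% were higher than Control and 12.2% were above both parents. Short transcripts were higher in general (above). The longest annotated transcripts of the NDUFA and NDUFB genes ran from 421 bases (NDUFA1) to 8356 (NDUFA9), and these need not be the expressed ones. These families were not counted again with the GC or length offsets. All 9 tested LCE genes, of 18 found, were higher (median 7.10, RAS 6.30), with reads that near-identical copies may share. LCE1E, LCE3D and LCE2D had 0 counts in Control, LCE3A had 2 and LCE1F had 10. These passed the filter only through the RAS/shDOT1L libraries, where they are high, so their direction was largely set by the filter.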
